A study of Mus musculus with 6 samples.

Results

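The cyclic AMP response element binding protein Creb1 was described together with 9 related genes in RNA sequencing data from mouse breast tissue. The set holds the transcription factors Creb1, Crem, Atf1, Atf2, Atf7 and Creb3 and the coactivators Crebbp, Ep300, Crtc2 and Crtc3. Genes were taken by symbol from the gene table, and all 10 were present among the 13823 listed genes. Creb1 was singled out because its values separated the ITSN from the vehicle mice, so it was selected on its FPKM values in these same libraries, and its difference between the groups is given as a description with no test. The other 9 were added as its relatives and partners.

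The samples came from 6 separate Balb/c mice that the labels describe as male. Of these, 3 received DMSO as vehicle and 3 received ITSN (isotoosendanin, a plant limonoid) by mouth at 1 mg/kg per day, and no other agent or allele is named. The series title places the study in triple-negative breast cancer and names TGFβR1 as the target of ITSN. The labels call the tissue breast, give no age and carry no word on tumour or normal tissue, and name no further group or time point.

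Creb1, Crem and Atf1 form a family of basic leucine zipper (bZIP) factors that bind the cyclic AMP response element in promoters as dimers. Protein kinase A and other kinases phosphorylate their kinase-inducible domain, which then recruits the acetyltransferases CBP (encoded by Crebbp) and p300 (Ep300). The CRTC coactivators bind the bZIP region instead and enter the nucleus when salt-inducible kinases no longer phosphorylate them. Atf2 and Atf7 answer to stress-activated kinases and pair with Jun proteins, and Creb3 is held in the endoplasmic reticulum membrane until it is cleaved. In mammary and tumour cells this network is known for immediate early transcription, growth and survival genes.

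Values were in FPKM, which divides fragments by transcript length and by the mapped total. Being per length, they were compared between genes, though the quantifier is unknown and length scaling takes no account of transcript GC content. Values per library are given in the order 1, 2 and 3 of each group. How deeply each library was sequenced is unknown. The library vehicle 1 was far from the rest on principal component 1, with a score of -43.2 against -4.63 to 20.1 elsewhere. Mitochondrially encoded transcripts took 17.5% to 32.3% of the FPKM sum in vehicle and 13.5% to 15.6% in ITSN, so the groups did not overlap in this share. Of the epithelial keratins, Krt8 and Krt18 were abundant, at 140.1 to 235.9 FPKM and 191.0 to 301.0 FPKM. The others were low, with Krt19 at 0.784 to 5.15, Krt7 at 1.43 to 4.33 and Krt14 at 0.575 to 2.32 FPKM, and Krt5 was not listed. Of 7 milk and mammary markers, 6 were not listed. Against the label of male mice, Xist was at 20.1 to 29.3 FPKM in every library, and 0 of 4 Y-linked genes looked for were listed.

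All 10 genes were above 1 FPKM in all 6 libraries, so none passed the expression filter through 1 group alone. The lowest value was 1.21 FPKM, for Crem in vehicle 1. By mean FPKM over the 6 libraries the order was Crebbp (16.8), Atf1 (16.6), Ep300 (13.4), Creb1 (12.7), Atf2 (11.9), Atf7 (7.84), Crtc2 (7.18), Creb3 (5.14), Crtc3 (1.69) and Crem (1.33). Of the neighbours in this order, Atf2 and Atf7 had ranges that did not overlap, and so did Creb3 and Crtc3. All other neighbours overlapped over the 6 libraries. Within libraries, Atf1 was above Ep300, Crtc2 above Creb3 and Crtc3 above Crem in 6 of 6. Crebbp was above Atf1 in 3 of 6, so these 2 levels were not distinguished. Crem ranked 10 of 10 in every library, and Creb3 and Crtc3 kept rank 8 and rank 9 in every library.

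**Figure D1:**
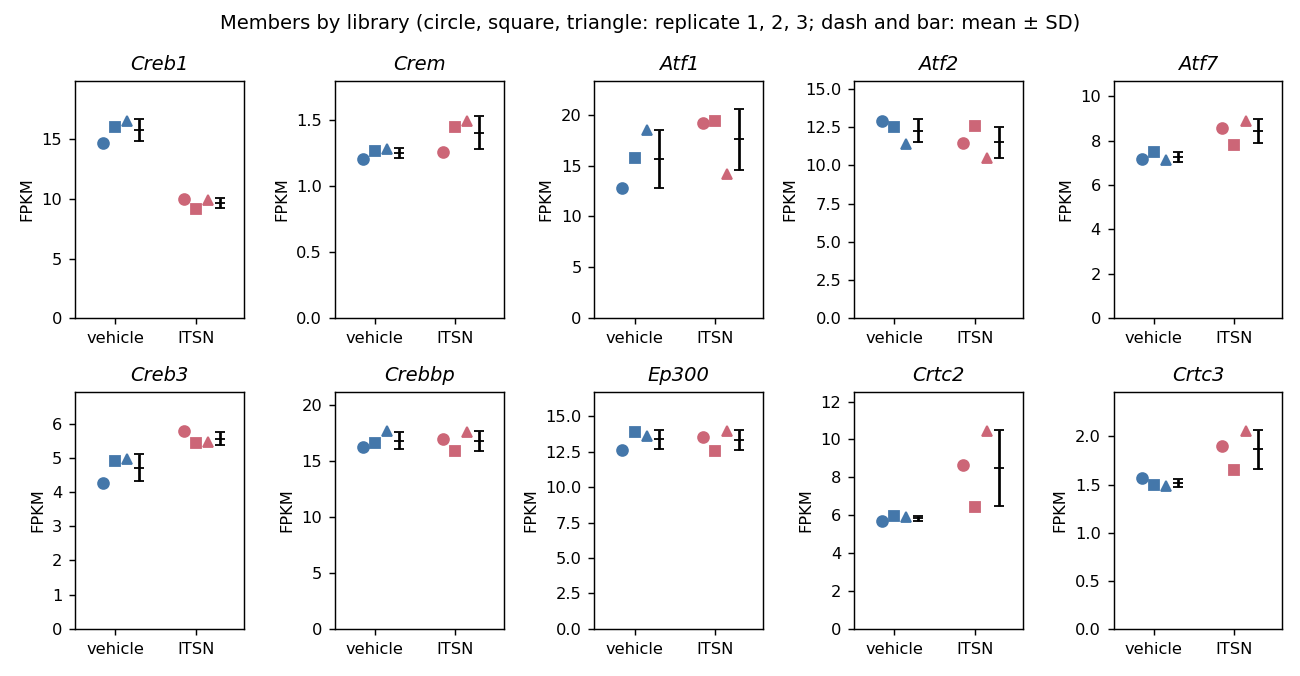
FPKM (vertical axes, from 0) of each of the 10 genes in the 3 vehicle and 3 ITSN libraries, with each library as a symbol and the mean ± SD beside it. Creb1 lies at 14.7 to 16.6 in vehicle and 9.20 to 9.98 in ITSN, whereas Crebbp lies at 15.9 to 17.7 over all libraries.

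Creb1 was lower in every ITSN library than in every vehicle library. Its level was 14.7, 16.0 and 16.6 FPKM in vehicle 1, 2 and 3, and 9.98, 9.20 and 9.89 FPKM in ITSN 1, 2 and 3. The lowest vehicle value lay well above the highest ITSN value, and the spread within each group was small. The group means were 15.8 ± 0.953 and 9.69 ± 0.425 FPKM (SD, n = 3 each), a ratio of 0.614. On the log2(FPKM + 1) scale the difference was -0.65 (SE 0.09). It was -0.70 without vehicle 1. Within the family Creb1 ranked 2, 2 and 3 of 10 under vehicle, against 5, 5 and 6 under ITSN. In this tissue fewer cells that express a gene and less RNA per cell cannot be told apart, here and in every result that follows.

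Creb1 (ENSMUSG00000025958.14) lies on the plus strand of chromosome 1 at 64532645 to 64604548 in mm10. GENCODE M21 gives it 11 transcripts, the longest of 8364 bases with a GC content of 39.6%, and no exon overlap with another gene. Epithelial markers summed to 358 to 528 FPKM in vehicle and 531 to 560 FPKM in ITSN, for 9 listed genes of 12, so this sum was higher in ITSN where Creb1 was lower. Krt8 and Krt18 made up 331 to 508 FPKM of it in vehicle and 495 to 537 FPKM in ITSN, and each overlapped between groups. Of the other 7 listed genes, 2 did not overlap (Cldn4 and Cldn7). Among the other 9 marker lists none had sums that separated the groups, and 0 of 6 B cell markers were listed. Vehicle 1 was low in macrophage markers (214 FPKM against 508 to 633 in the other libraries) and fibroblast markers (46.3 FPKM against 121 to 191). It was also the lowest library in the epithelial, T and NK cell and skeletal muscle sums. It was the highest in neutrophil markers (236 FPKM against 76.2 to 130), endothelial markers (36.8 FPKM against 20.9 to 29.4) and adipocyte markers. Within the fibroblast list, Pdgfra was highest in vehicle 1. Skeletal muscle markers summed to 41.5, 87.7 and 5.63 FPKM in ITSN, beside 2.65 to 11.7 FPKM in vehicle. In ITSN, Atf1 and Atf2 had the same order of libraries as this muscle sum, and Crtc2, Crtc3, Atf7, Crebbp and Ep300 had the reverse order. The endothelial, neutrophil, adipocyte and milk sums and the mitochondrial share also had the muscle order in ITSN. Epithelial, macrophage, fibroblast and T and NK cell sums had the reverse order there. The order is thus not particular to muscle, and the part of these cells was not tested. How many of all tested genes had either order was not counted, so these members cannot be set against a background. The part of the epithelial markers and of the mitochondrial share in the Creb1 values was not tested. When scaled without mitochondrial genes the Creb1 difference was -0.73.

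The promoter windows of Creb1 and Atf1 are shown because these genes are close relatives and were the most abundant of the 3 kinase-inducible factors. They run from 250 bases before to 50 after the RefSeq start in GRCm38.p6, at chr1:64532554-64532853 and chr15:100227609-100227908, both on the plus strand. Capitals mark GGGCGG or its reverse complement CCGCCC (the GC box) and TGACG or CGTCA (the core of the cyclic AMP response element).
Creb1: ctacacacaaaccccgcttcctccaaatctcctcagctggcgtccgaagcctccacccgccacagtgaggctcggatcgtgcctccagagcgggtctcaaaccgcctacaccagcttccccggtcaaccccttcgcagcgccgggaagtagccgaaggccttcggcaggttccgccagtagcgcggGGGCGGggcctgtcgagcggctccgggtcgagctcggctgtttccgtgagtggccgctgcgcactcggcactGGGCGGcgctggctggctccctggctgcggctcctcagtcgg
Atf1: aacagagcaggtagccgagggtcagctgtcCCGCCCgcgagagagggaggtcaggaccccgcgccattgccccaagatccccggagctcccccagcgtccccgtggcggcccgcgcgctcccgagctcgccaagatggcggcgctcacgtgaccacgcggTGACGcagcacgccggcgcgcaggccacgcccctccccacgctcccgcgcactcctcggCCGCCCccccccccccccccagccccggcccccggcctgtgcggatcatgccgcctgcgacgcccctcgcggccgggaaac

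Windows were matched by symbol and used for 8 of the 10 genes. Those on chromosome 18, where Crem lies, were left out by rule, and no window was used for Crtc2. The full element TGACGTCA, which reads the same on both strands, was in 0 of these 8 windows and in 1.79% of all 32851 RefSeq windows of the same length. Its core TGACG was in the Atf1 window alone among the 8, against 20.8% of all windows. The GC box was in every one of the 8 windows, with 2 matches each in Creb1 and Atf1, against 35.7% of all windows. The letters CCAAT, on either strand, were in the windows of Atf2 and Crtc3 and in 37.4% of all windows. GC content was 69.0% in the Creb1 window and 77.3% in the Atf1 window, against a median of 52.7%. It ran from 54.7% (Creb3) to 82.0% (Crebbp) over the 8 windows, and the shares of all windows were not matched for it. The RefSeq starts differ from the starts of the listed genes. For Creb3, Crebbp and Ep300 the window lay wholly inside the listed gene, and for Creb1 the larger part of it did. Bases further upstream were not searched, so a motif absent from a window can still be present in the promoter. These are matches of letters within the windows and say nothing of binding.

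Atf1 and Crem, which share the kinase-inducible domain with Creb1, did not show the same pattern. Atf1 had FPKM values of 12.8, 15.7 and 18.5 under vehicle and of 19.2, 19.4 and 14.1 under ITSN. Vehicle 1 and ITSN 3 were the low libraries, so the groups overlapped. The log2 difference was 0.16 (SE 0.17, limma adjusted p = 0.65), and 0.03 without vehicle 1, where it was 0.30 without ITSN 3. The 95% confidence interval of -0.25 to 0.57 holds both lower and higher values.

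Crem, whose isoforms include activators and repressors of the same element, was the least abundant of the 10. It had FPKM values of 1.21, 1.27 and 1.28 under vehicle and of 1.26, 1.45 and 1.50 under ITSN. ITSN 1 fell within the vehicle range, and the log2 difference was 0.09 (SE 0.09, limma adjusted p = 0.61), or -0.04 after quantile normalization. GENCODE lists 39 transcripts of Crem, of which 1 gene value cannot tell activator from repressor forms. Its exons overlap Gm6225 on the opposite strand by 472 bases.

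The share of Creb1 in the summed FPKM of Creb1, Crem and Atf1 was 51.3%, 48.5% and 45.7% in vehicle 1, 2 and 3. In ITSN 1, 2 and 3 it stood at 32.8%, 30.6% and 38.7%. The sum itself was 28.7, 33.1 and 36.3 FPKM in vehicle and 30.4, 30.1 and 25.5 FPKM in ITSN, so that the groups overlapped in the total and not in the share. The share rests on the Creb1 difference for which the gene was chosen, and it carries no test.

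Of the stress-responsive pair, Atf2 had FPKM values of 12.9, 12.5 and 11.4 under vehicle and of 11.5, 12.6 and 10.5 under ITSN. The groups overlapped, with a log2 difference of -0.09 (SE 0.10, limma adjusted p = 0.67). Atf7 had FPKM values of 7.18, 7.50 and 7.10 under vehicle and of 8.57, 7.81 and 8.90 under ITSN. Each ITSN value of Atf7 was above each vehicle value, though ITSN 2 by little, and the log2 difference of 0.19 (SE 0.09) did not pass the threshold (limma adjusted p = 0.29) and ran from 0.08 to 0.24 over 17 alternatives. Atf7 shares 1284 exon bases, 11.7% of its exonic length, with Gm28047 on the same strand, and reads of that stretch could be counted for either gene.

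Set against each other within a library, Atf2 stood at 1.80, 1.66 and 1.61 times Atf7 in vehicle, against 1.34, 1.61 and 1.18 times Atf7 in ITSN. The ITSN 2 ratio equalled that of vehicle 3 at this rounding. The log2 ratio differed by -0.31 between groups (SE 0.14, n = 3 each, exact two-sided permutation p = 0.2, or 0.45 adjusted over 3 ratios), where 0.1 is the smallest p that 3 against 3 libraries allow.

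Creb3, the membrane-bound factor, had FPKM values of 4.26, 4.90 and 4.98 under vehicle and of 5.78, 5.43 and 5.47 under ITSN. Its groups did not overlap, with vehicle 1 the lowest library. The log2 difference was 0.20 (SE 0.10, limma adjusted p = 0.29), 0.14 without vehicle 1 and -0.01 after removal of the GC trend. Its exons overlap Tln1 by 360 bases and Gba2 by 133 bases, both on the opposite strand. The libraries marked strand, and the sources used here do not give whether counting used it.

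The acetyltransferases Crebbp and Ep300 had the smallest differences of the 10 in the values as deposited, though not after trimmed-mean scaling (-0.11 and -0.12) or removal of the GC trend (-0.15 and -0.14). Crebbp had FPKM values of 16.3, 16.6 and 17.7 under vehicle and of 17.0, 15.9 and 17.6 under ITSN. The groups lay on top of each other, and the log2 difference was -0.00 (SE 0.09, limma adjusted p = 0.99, 95% confidence interval -0.21 to 0.20). Ep300 had FPKM values of 12.6, 13.9 and 13.6 under vehicle and of 13.5, 12.5 and 13.9 under ITSN. It likewise overlapped, with a log2 difference of -0.01 (SE 0.09, limma adjusted p = 0.98, 95% confidence interval -0.21 to 0.20). For each gene the highest library was no more than 1.11 times the lowest, the narrowest ranges of the 10.

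The ratio of Crebbp to Ep300 took values of 1.29, 1.19 and 1.30 under vehicle, against 1.26, 1.27 and 1.26 under ITSN. The 3 ITSN libraries fell inside the vehicle range, and the log2 ratio differed by 0.00 (SE 0.04, exact two-sided permutation p = 1.0, n = 3 each). Ratios of Creb1 to both coactivators were lower in ITSN, which restates the difference for which Creb1 was chosen and carries no test. The ratio of Creb1 to Crebbp took values of 0.906, 0.967 and 0.938 under vehicle and of 0.588, 0.579 and 0.561 under ITSN. To Ep300 it stood at 1.17, 1.15 and 1.22 under vehicle, against 0.738, 0.735 and 0.710 under ITSN. The ratio of Creb1 to Atf1 spread more, from 0.899 to 1.15 in vehicle and from 0.474 to 0.700 in ITSN.

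**Figure D2:**
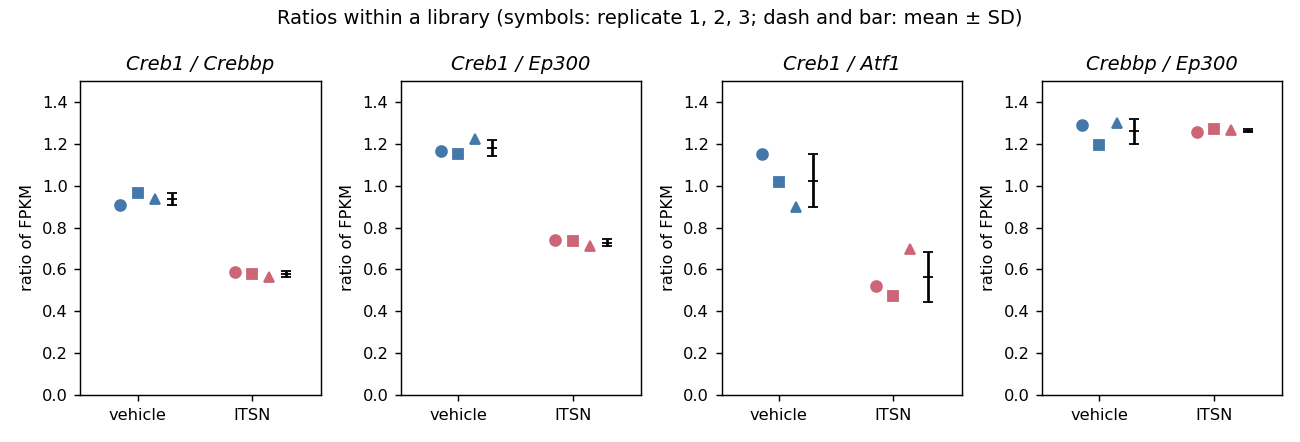
Ratios of FPKM within a library (vertical axes, from 0) for 4 pairs of genes in the 3 vehicle and 3 ITSN libraries, with mean ± SD. Creb1 to Crebbp lies at 0.906 to 0.967 in vehicle and 0.561 to 0.588 in ITSN, and Crebbp to Ep300 at 1.19 to 1.30 over all libraries.

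Of the CRTC coactivators, Crtc2 had the largest log2 difference upward of the 10 genes, in the fit to all 6 libraries. It had FPKM values of 5.69, 5.94 and 5.91 under vehicle and of 8.67, 6.44 and 10.4 under ITSN. The vehicle libraries lay close together and the ITSN libraries wide apart, with ITSN 2 just above vehicle. The means were 5.84 ± 0.138 and 8.51 ± 2.00 FPKM (SD, n = 3 each), with a log2 difference of 0.45 (SE 0.16) that did not pass (limma adjusted p = 0.18). Without ITSN 2 it was 0.62 (limma adjusted p = 0.14), and without ITSN 3 it was 0.31 (limma adjusted p = 0.43). After removal of the GC trend it was 0.21.

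Crtc3, at a lower level, had FPKM values of 1.57, 1.49 and 1.49 under vehicle and of 1.90, 1.65 and 2.05 under ITSN. The groups did not overlap, and ITSN 3 was again the highest and ITSN 2 the lowest of its group. The log2 difference was 0.19 (SE 0.10, limma adjusted p = 0.32), and it turned to -0.14 after removal of the GC trend. Crtc2 stood at 3.63, 3.98 and 3.97 times Crtc3 in vehicle and at 4.56, 3.90 and 5.08 times in ITSN. These ratios overlapped (log2 difference 0.22, SE 0.12, n = 3 each, exact two-sided permutation p = 0.3, adjusted over 3 ratios 0.45). Relative to Creb1, Crtc2 stood at 0.386, 0.370 and 0.356 in vehicle, against 0.868, 0.699 and 1.05 in ITSN, given as a description since Creb1 is part of it.

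In limma over all 12257 tested genes, 0 of the 9 genes other than Creb1 had an adjusted p under 0.05, where 0.0571% of all tested genes did (7 genes, with 0.049% higher and 0.00816% lower in ITSN). At an unadjusted p under 0.05, Crtc2 was the 1 gene of the other 9, where 20.9% of all tested genes were (16.3% higher and 4.57% lower in ITSN), so this count is no more than the background. Groups that did not overlap were seen for 5 of the 10 genes, against 29.1% of all tested genes. Of these, 4 were higher in ITSN (Atf7, Creb3, Crtc2 and Crtc3), against 21.8% of all genes. Creb1 was lower, against 7.37%, and enters this count as a description, since it was chosen for its separation. The median log2 difference of the 10 was 0.13, beside 0.09 over all tested genes.

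The count of non-overlapping genes rested on the scaling. Trimmed-mean scaling left Creb1, Creb3 and Crebbp apart, with Crebbp lower, where 31% of all tested genes were apart. Quantile normalization or scaling without mitochondrial genes left Creb1 and Creb3, where 29.4% and 30.4% of all genes were apart. These counts of 2 to 3 in 10 are near the background. Quantile normalization moved the median log2 difference of all tested genes from 0.09 to -0.02. After removal of the GC trend Creb1, Crebbp and Ep300 were apart, and each was lower in ITSN, with log2 differences of -0.56, -0.15 and -0.14 (limma adjusted p = 0.42 for Crebbp and 0.46 for Ep300), where 22.1% of all genes were apart. Creb1 was thus apart under each of these scalings, which follows in part from its choice.

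**Figure D3:**
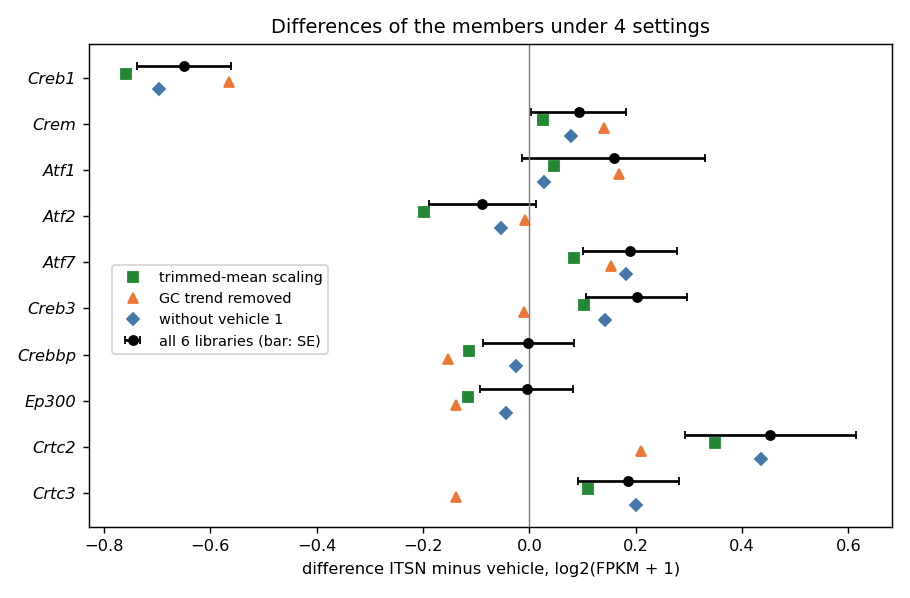
Difference between ITSN and vehicle on the log2(FPKM + 1) scale (horizontal axis) for the 10 genes, with all 6 libraries (SE as a bar), after trimmed-mean scaling, after removal of the GC trend and without vehicle 1. Creb1 lies between -0.76 and -0.56 in these 4 settings, and Crtc3 turns from 0.19 to -0.14 when the GC trend is removed.

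Over all tested genes the difference between groups moved with transcript GC content. The median log2 difference ran from -0.09 among the decile poorest in GC (median GC 38.5%) to 0.40 among the richest (median GC 59.1%). Creb1 was in the lowest decile at 39.6%, and its difference of -0.65 lay below the -0.09 of that decile. Atf2, in the second decile at 40.5%, had -0.09, beside a decile median of -0.06. Creb3 and Crtc2 were in the eighth decile (53.6% and 54.5%), whose median was 0.22, and Crtc3 was in the ninth (57.0%), whose median was 0.30. Creb3 and Crtc3 thus lay at or below the median of genes of their GC content, and Crtc2 above it. Crebbp and Ep300, in the seventh decile (51.7% and 51.1%), lay below its median of 0.16.

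**Figure D4:**
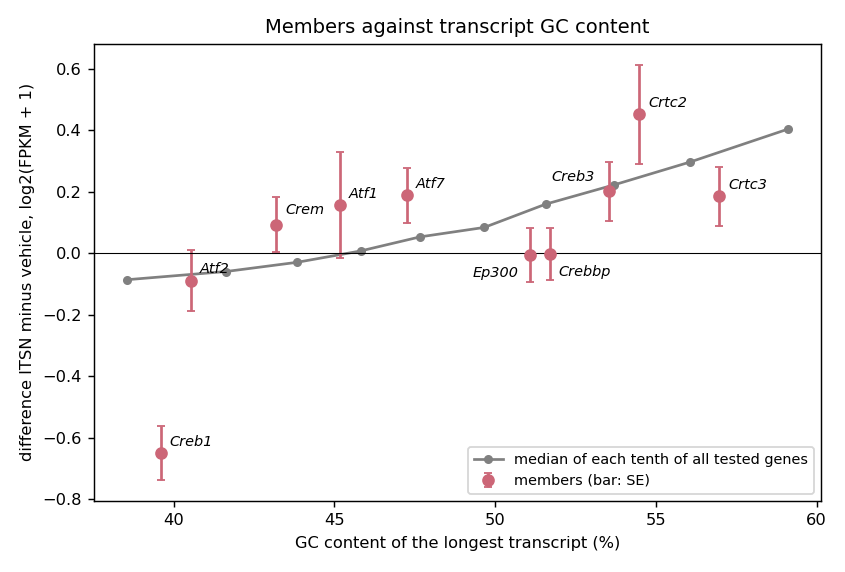
Difference between ITSN and vehicle on the log2(FPKM + 1) scale (vertical axis, SE as a bar) against the GC content of the longest transcript in percent (horizontal axis) for the 10 genes, with the median of each decile of all tested genes as a line. Creb1, at -0.65, lies below the line, which is at -0.09 for genes of its GC content.

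Genes around this network were examined by lists. Of the other CREB, ATF and CRTC genes, 12 of 17 were tested and 0 passed in limma, with 2 higher and 0 lower at an unadjusted p under 0.05, near the 16.3% and 4.57% of all genes. Their median log2 difference was 0.18 and 10 of 12 were higher, where 64.0% of all tested genes were. Atf6b, an endoplasmic reticulum stress factor, had FPKM values of 5.78, 6.23 and 7.11 under vehicle and of 10.2, 8.60 and 10.9 under ITSN (log2 difference 0.56, limma adjusted p = 0.086), and at 0.14 once the GC trend was removed. Crtc1, the third CRTC coactivator, was at 1.31 ± 0.154 and 2.00 ± 0.206 FPKM (SD, n = 3 each; log2 difference 0.37, limma adjusted p = 0.12, and 0.07 after removal of the GC trend). Atf6 and Crebzf had log2 differences of 0.21 and 0.31 (limma adjusted p = 0.27 and 0.40), and of 0.20 and 0.19 after removal of the GC trend. Without vehicle 1 the value of Crebzf was 0.09.

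Upstream, 24 of 36 genes of cyclic AMP and protein kinase A were tested, and 0 passed in limma, with 3 higher and 3 lower at an unadjusted p under 0.05, against 16.3% and 4.57% of all genes. The median log2 difference was 0.01, with 13 higher and 11 lower. Akap12, a scaffold that anchors protein kinase A, had FPKM values of 10.3, 8.49 and 8.02 under vehicle and of 5.84, 4.61 and 5.78 under ITSN. Its groups did not overlap (log2 difference -0.63, limma adjusted p = 0.084), and it stood at -0.80 after removal of the GC trend. Akap9, another scaffold, had a log2 difference of -0.32 (limma adjusted p = 0.16), the adenylyl cyclase Adcy3 of 0.41 (0.11) and the phosphodiesterase Pde4a of 0.34 (0.16), which became -0.30, 0.09 and 0.01 after removal of the GC trend. The catalytic subunits Prkaca and Prkacb had log2 differences of 0.18 and -0.02 (limma adjusted p = 0.37 and 0.95).

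Of kinases that act on CREB or Atf2, 26 of 30 were tested and 0 passed in limma, with 5 higher and 1 lower at an unadjusted p under 0.05, near the 16.3% and 4.57% of all genes. The median log2 difference was 0.13. Mapkapk2, a kinase downstream of p38 that phosphorylates CREB, had FPKM values of 18.1, 17.5 and 17.6 under vehicle and of 24.5, 24.7 and 24.7 under ITSN. Both groups were tight and apart (log2 difference 0.45, limma adjusted p = 0.072, and 0.034 without vehicle 1), and the difference was 0.11 after removal of the GC trend. Akt1 and Rps6ka4 had log2 differences of 0.45 and 0.40 (limma adjusted p = 0.12 and 0.14), and Hipk2 of -0.29 (0.15). After removal of the GC trend these were 0.05, -0.02 and -0.50, and without vehicle 1 Akt1 passed (limma adjusted p = 0.044).

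Of the kinases, phosphatases and Ywha adaptor genes that act on CRTC proteins, 24 of 25 were tested. In limma 0 passed, with 0 higher and 1 lower at an unadjusted p under 0.05 (16.3% and 4.57% of all genes), and the median log2 difference was -0.02. The lower gene was Ywhae, an adaptor that holds phosphorylated CRTC proteins in the cytoplasm, at 203 ± 13.7 and 160 ± 3.62 FPKM (SD, n = 3 each; log2 difference -0.34, limma adjusted p = 0.12). Without vehicle 1 its adjusted p was 0.041. Mark2, Stk11 and Ywhaq had log2 differences of 0.29, 0.22 and -0.22 (limma adjusted p = 0.26, 0.29 and 0.35), which became -0.05, -0.18 and -0.21 after removal of the GC trend. Salt-inducible kinases Sik1, Sik2 and Sik3 had log2 differences of -0.10, 0.03 and 0.17 (limma adjusted p = 0.66, 0.88 and 0.49).

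Genes known as CREB targets lay near the background of all genes. Of 33, 26 were tested and 0 passed in limma, with 3 higher and 0 lower at an unadjusted p under 0.05, against 16.3% and 4.57% of all genes. The median log2 difference was 0.10, beside 0.09 over all tested genes, and 19 of 26 were higher, where 64.0% of all genes were. Ier2, an immediate early gene, had FPKM values of 10.4, 11.0 and 11.6 under vehicle and of 16.8, 16.8 and 16.7 under ITSN, with groups apart (log2 difference 0.57, limma adjusted p = 0.068). It had 0.13 after removal of the GC trend, and passed after trimmed-mean scaling, quantile normalization or scaling without mitochondrial genes and without vehicle 1. Junb, Per2 and Egr1 had log2 differences of 0.76, 0.36 and 0.29 (limma adjusted p = 0.076, 0.21 and 0.32), which became 0.28, 0.12 and -0.05 after removal of the GC trend. Junb passed without vehicle 1 (limma adjusted p = 0.034). The classic targets Fos and Nr4a1 had 0.06 and 0.28 (limma adjusted p = 0.94 and 0.34). Areg and Bcl2, the lowest of the list, had -0.21 and -0.27 (limma adjusted p = 0.43 and 0.58), and each overlapped between groups.

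**Figure D5:**
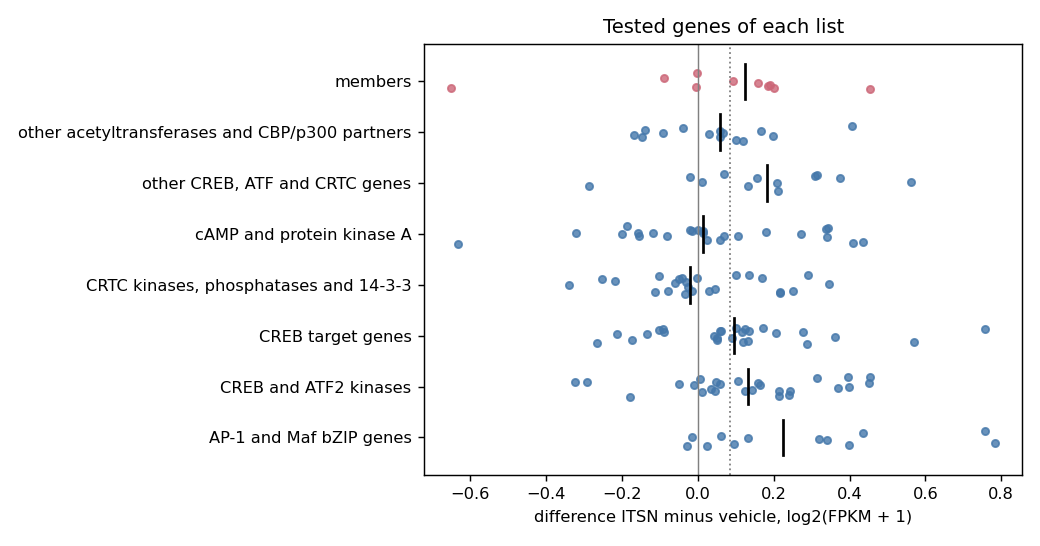
Difference between ITSN and vehicle on the log2(FPKM + 1) scale (horizontal axis) for each tested gene of 7 lists and for the 10 genes described here, with the median of each list as a bar and that of all tested genes as a dotted line. The list medians run from -0.02 to 0.23, and Creb1 and Akap12 are the lowest points.

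The genes whose profile over the 6 libraries lay closest to that of Creb1 were ranked by the root mean square distance of their centred log2(FPKM + 1) values, among 10953 other protein-coding genes. They were Ap1ar (distance 0.04), Gm10226 (0.04), Ndufs6 (0.06), Uqcrb (0.06) and Zfp946 (0.06). Ap1ar had FPKM values of 7.21, 7.45 and 8.55 under vehicle and of 4.75, 4.14 and 4.68 under ITSN. Uqcrb, a subunit of respiratory complex III, had FPKM values of 86.1, 86.8 and 85.1 under vehicle and of 54.2, 52.2 and 57.1 under ITSN. Of the 9 relatives, Atf2 was the closest to Creb1 at a distance of 0.31, which ranked 2144, and Crtc2 the farthest at 0.57, which ranked 9606. Creb1 was chosen for the group difference that makes up most of its profile and its relatives were not, so these distances follow in part from that choice.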

How the data were processed

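The authors deposited 1 gene table of 6 libraries in FPKM, a unit which the file headers name FPKM. The submitters' processing notes name mm10 as the genome. Which aligner, quantifier and strand setting served was not found in the labels or headers. Columns were matched to samples by description, since the title of ITSN 3 has another number than its column. In every listed gene, 1 group mean or both reached 0.5 FPKM. Low values of 300 genes per library showed no whole-read steps (5.33% to 9.67% lay within 0.05 of a whole number), so no counts were recovered and depth is unknown.

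A gene entered the tests with 1 FPKM or more in 3 or more libraries (12257 genes), as log2(FPKM + 1), which understates changes of low genes. ITSN and vehicle were compared in limma 3.58.1 under R 4.3.3 with a mean-variance trend, two-sided, and Benjamini-Hochberg adjustment over all tested genes at 0.05. Ratios of paralogs used an exact permutation test. GC content was that of the longest GENCODE M21 transcript, matched by gene ID without version for 99.7% of genes. Alternatives covered pseudocount, filter, scaling, GC trend (lowess span 0.3), variance trend, pairing and left-out libraries. The permutation tests went through every split of the libraries in Python 3.11.15, and scipy 1.17.1 adjusted their p-values. The fit was tested on simulated data. The 10 genes, the lists and the rules were chosen with earlier results of these data known. The named genes were the 10, up to 4 genes per list with the smallest unadjusted p and the 5 closest to Creb1. Prkaca, Prkacb, Sik1, Sik2, Sik3, Fos, Nr4a1, Areg, Bcl2 and Cited2 were added after their values were seen. The windows were taken from RefSeq.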

Additional observations from a re-analysis of the deposited data

How the results depend on the processing

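With all 6 libraries 7 genes passed, and the count was 19 with a filter of 5 FPKM, 93 after quantile normalization, 112 after trimmed-mean scaling, 79 when scaled without mitochondrial genes, 94 without vehicle 1 and with the GC trend removed, 2 without vehicle 2 and ITSN 1, and 1 to 673 when 1 library was left out, with 673 without vehicle 1. Of the 10 genes, those other than Creb1 did not pass in any alternative. Creb1 was selected on this difference, so whether it passed is not a test and is left out here. For the listed network genes the count was 0. It became 1 (Ier2) after quantile normalization, trimmed-mean scaling or scaling without mitochondrial genes. When 1 library was left out it ran from 0 to 8, with 8 without vehicle 1. Non-overlapping genes among the 10 numbered 5, and 3 after GC removal, 2 after quantile normalization, 2 when scaled without mitochondrial genes, 3 after trimmed-mean scaling, and 5 to 6 when 1 library was left out, where 22.1% to 31% of all genes in the former and 31.7% to 47.5% in the latter did not overlap; these last alternatives were chosen after seeing the data.

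The log2 difference of Creb1 ran from -0.76 to -0.56 over 17 alternatives. Signs turned for Crem after quantile normalization (-0.0352), Atf2 without vehicle 1 and the GC trend (0.0661), Creb3 after GC removal (-0.0111), Crtc3 after GC removal (-0.14, or -0.0464 without vehicle 1 as well) and Ep300 without vehicle 2 and ITSN 1 (0.0114). With 1 library left out Crebbp ran from -0.0346 to 0.0362 and Ep300 from -0.0433 to 0.0357. The Crebbp to Ep300 log2 ratio difference of 0.0034 was -0.0163 after GC removal and ran from -0.036 to 0.027 with 1 library left out. Crem and Crtc3 had no value under the filter of 5 FPKM. The cause was not tested.

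Replicate numbers are shared between the groups, but same-numbered libraries did not deviate together (correlations of -0.00, -0.14 and 0.24). With the replicate number as a block 2 genes passed in all, and 0 of those other than Creb1 among the 10.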

Other observations

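Among the AP-1 and Maf genes, bZIP factors that can pair with ATF proteins, all 12 were tested and 0 passed in limma, with 5 higher and 0 lower at an unadjusted p under 0.05, where 16.3% and 4.57% of all tested genes were. Their median log2 difference was 0.23 and 10 of 12 were higher. Jund, a broadly expressed Jun protein, had FPKM values of 26.7, 24.5 and 24.4 under vehicle and of 44.1, 37.7 and 51.6 under ITSN (log2 difference 0.78, limma adjusted p = 0.071). Mafg and Mafk, small Maf proteins, had log2 differences of 0.40 and 0.34 (limma adjusted p = 0.085 and 0.12). Without vehicle 1, Jund and Mafg passed (limma adjusted p = 0.039 and 0.045). After removal of the GC trend the differences of Jund, Junb, Mafg and Mafk were 0.19, 0.28, 0.14 and 0.04. The GC content of their longest transcripts was 67.1%, 62.6%, 54.9% and 56.2%.

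Of other acetyltransferases and partners of CBP and p300, 14 of 16 were tested and 0 passed in limma, with 1 higher and 0 lower at an unadjusted p under 0.05, where 16.3% and 4.57% of all tested genes were. Kat2a, the GCN5 acetyltransferase, averaged 13.7 ± 2.56 FPKM under vehicle and 18.4 ± 1.52 under ITSN (SD over 3 libraries each; log2 difference 0.41, limma adjusted p = 0.18), and at 0.07 after removal of the GC trend. Kat6a, Ncoa2 and Kat8 had log2 differences of -0.17, 0.17 and 0.20 (limma adjusted p = 0.31, 0.31 and 0.35), and of -0.21, 0.11 and 0.03 after removal of the GC trend. Cited2, which binds CBP and p300, had -0.09 (limma adjusted p = 0.70).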
